A study of Mus musculus with 2 samples.

Results

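The genes described here are those of the natriuretic peptide system of the heart, 8 of the 43346 genes in the tables. They were chosen by name: the peptides Nppa, Nppb and Nppc, the proteases Corin and Furin that cut the precursors, and the receptors Npr1, Npr2 and Npr3. The study measured poly(A)-selected RNA longer than 200 nucleotides from heart of the inbred mouse strain C57BL/6J, taken in adulthood at 8 weeks with no treatment named in the labels. The reads were strand-specific pairs. The study holds 1 group of 2 libraries, replicate 2 and replicate 1, so there is no contrast between conditions. What follows are levels, ratios of genes inside each library and folds of replicate 2 over replicate 1. The labels call the libraries biological replicates, give each its own biosample and name 1 donor record for both. Sex-linked genes, given below, differed between the libraries, so that record cannot stand for 1 animal. How far the spread between the libraries is technical is not known.

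The natriuretic peptides of Nppa and Nppb are hormones released by heart muscle in response to stretch. They promote salt and water loss and relax blood vessels. Each natriuretic peptide is made as a longer precursor whose active part carries a ring closed by a pair of cysteines. Proteases release that part. Npr1 and Npr2 are membrane receptors with their own guanylyl cyclase, which makes the messenger cGMP, and Npr3 takes the peptides up and clears them. In adult rodent heart Nppa is mainly a product of the atria, and both Nppa and Nppb are used as markers of cardiac load.

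The libraries stood apart in ways their shared label does not give. They are labelled as littermates of both sexes, yet 4 Y-linked genes together held 2916 counts in replicate 2 and 0 in replicate 1, and Xist held 13 and 13725. Replicate 2 thus read as male and replicate 1 as female. In every fold of replicate 2 over replicate 1, sex cannot be told apart from the other differences between the libraries. Replicate 2 held 62912053 estimated counts and replicate 1 held 57464573. Markers of 3 other tissues moved with the library. The 7 lung and airway genes, led by Scgb1a1, summed to 2160 TPM (transcripts of each gene as parts of a fixed sum, scaled by length) in replicate 2 and 0.45 TPM in replicate 1, where 3 of them (Scgb3a2, Sftpb and Sftpa1) were at 0. The 6 erythroid genes, led by Hba-a2, summed to 94906 and 7592 TPM, and the 8 adipocyte genes, led by Cfd, to 556 and 140 TPM. By the call rule given below, all 7, all 6 and 7 of 8 of them passed as higher in replicate 2. Mitochondrial genes and their chromosome 1 copies made up 44.9% of the TPM sum of replicate 2, against 62.9% of that of replicate 1. Levels in TPM therefore share a sum with very unequal parts, and differences between the libraries are given on counts scaled with TMM, a method that lets the bulk of genes set the scale. The part of sex, of these tissues and of the unequal sums in the results was not tested.

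The ring that the peptides share is shown for Nppb and Nppc alone, as its coding bases (GENCODE M21 transcripts, GRCm38, 5′ to 3′). The capitals mark the cysteine codons at both ends of its 17 codons.
Nppb-201 (chr4:147986464-147986514, plus strand, exon 2 of 3): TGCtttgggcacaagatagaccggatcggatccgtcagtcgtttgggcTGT
Nppc-201 (chr1:86669667-86669717, minus strand, exon 2 of 3): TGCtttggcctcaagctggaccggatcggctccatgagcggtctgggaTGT
Over these 51 bases, set side by side without gaps, Nppb and Nppc shared 40 identical bases (78.4%). That value is for this pair only and does not cover Nppa. After the ring, 6 codons follow in Nppb, while in Nppc the stop codon comes next.

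Among the peptides, Nppa, the atrial natriuretic peptide, dominated. Nppa (ENSMUSG00000041616.9, chromosome 4, positions 148000722 to 148002079, plus strand) measured 2370 TPM in replicate 2, against 1427 TPM in replicate 1, from 104072 and 58837 estimated counts. That is a mean of 1899 ± 667 TPM (SD, n = 2), and rank 33 in replicate 2 and 37 in replicate 1 among 21474 protein-coding genes. Nppa was thus among the most abundant messenger RNAs in both libraries. Nppb, the B-type peptide (ENSMUSG00000029019.8, chromosome 4, positions 147985788 to 147987205), measured 108 TPM in replicate 2, against 74.0 TPM in replicate 1, from 4149 and 2663 counts. Its mean was 91.1 ± 24.1 TPM, at rank 546 and 639. Nppa starts 13517 bases after the end of Nppb on the same strand. Within a library, the TPM of Nppa was 21.9 times that of Nppb in replicate 2 and 19.3 times in replicate 1, a mean log2 ratio of 4.36 ± 0.13. The excess of Nppa over Nppb was far larger than its spread between the libraries, although 2 values allow an exact sign test (two-sided) no p under 0.5.

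Nppc, the C-type peptide, known mainly from endothelium, cartilage and brain (ENSMUSG00000026241.5, chromosome 1, positions 86666291 to 86670571, minus strand), was at the edge of detection. It had 4 counts in replicate 2 (exact Poisson 95% interval 1.09 to 10.2 counts) and 0 in replicate 1. In TPM this is 0.07 in replicate 2. For the count of 0 in replicate 1 the same interval reaches 3.69 counts. The floor used here, 3 counts, stands for 0.0574 TPM in replicate 1. The libraries could not be told apart for Nppc at this depth, and intervals and floors here cover counting error only.

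**Figure D1:**
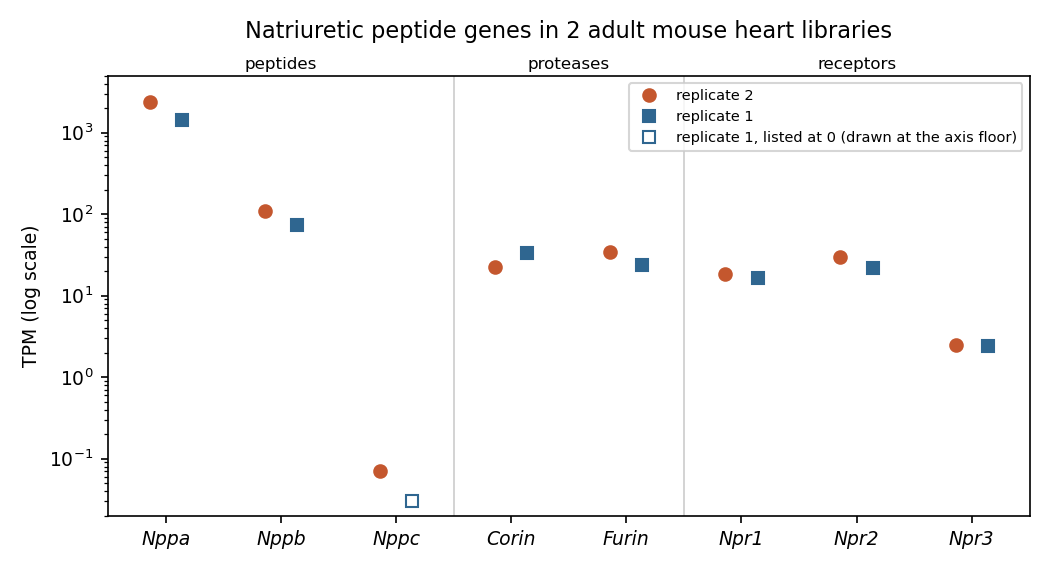
Level of each gene in TPM on a log axis, with 1 point per library (circles replicate 2, squares replicate 1) and genes grouped by role. Nppa lies at 2370 and 1427 TPM, the proteases and the cyclase receptors lie between 16.6 and 34.4 TPM, Npr3 near 2.4 TPM, and Nppc is listed at 0 in replicate 1, where an open square marks it at the axis floor.

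Short matches to GATAA, a core that GATA factors are known to bind, lay just upstream of the neighbouring genes Nppb and Nppa, and the windows that hold them are shown because these were the only members with such a match. The sequences are from RefSeq on GRCm38.p6, read in the direction of the gene, with the matches in capitals.
Nppa (chr4:148000588-148000617, plus strand): gctttgccgaactGATAActttaaaagggc
Nppb (chr4:147985799-147985828, plus strand): tgcagctGATAAatcagaGATAAccccacc
The 250 bases upstream of the RefSeq start were searched for GATAA on both strands, and the matches did not overlap. Nppa and Nppb held 2 matches each, of which 1 of Nppa is on the other strand and lies outside the window printed. The upstream windows of the other 6 genes held none. Of 32851 RefSeq promoters of the same length, 22.6% held at least 1 match and 4.28% at least 2. The Nppb window lies upstream of the RefSeq start at position 147985900 but inside the GENCODE gene, which begins earlier. These are matches of letters only, and no binding was measured.

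The processing proteases were present at similar levels. Furin, a convertase of the secretory pathway that cuts the precursors of Nppb and Nppc (ENSMUSG00000030530.11, chromosome 7, positions 80388585 to 80405436, minus strand), measured 34.4 TPM in replicate 2, against 23.9 TPM in replicate 1, a mean of 29.1 ± 7.41 TPM. Corin, a transmembrane serine protease of heart muscle that cuts the Nppa precursor (ENSMUSG00000005220.6, chromosome 5, positions 72300025 to 72504473, minus strand), measured 22.4 TPM in replicate 2, against 33.7 TPM in replicate 1, a mean of 28.0 ± 7.95 TPM. Furin was thus above Corin in replicate 2 and below it in replicate 1. Averaged over both, the log2 ratio of Furin over Corin was 0.06 ± 0.79, well inside its spread. Nppa exceeded Corin by a log2 ratio of 6.73 in replicate 2 and 5.41 in replicate 1.

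Of the receptors, both cyclases were well above the clearance receptor. Npr2, guanylyl cyclase B, whose preferred ligand is the C-type peptide (ENSMUSG00000028469.11, chromosome 4, positions 43631935 to 43651244, plus strand), measured 30.1 TPM in replicate 2, against 22.0 TPM in replicate 1, a mean of 26.0 ± 5.75 TPM. Npr1, guanylyl cyclase A, the receptor of the Nppa and Nppb peptides (ENSMUSG00000027931.8, chromosome 3, positions 90450591 to 90465866, minus strand), measured 18.4 TPM in replicate 2, against 16.6 TPM in replicate 1, a mean of 17.5 ± 1.31 TPM. Npr3, the clearance receptor (ENSMUSG00000022206.6, chromosome 15, positions 11839896 to 11907287, minus strand), measured 2.46 TPM in replicate 2, against 2.39 TPM in replicate 1, a mean of 2.42 ± 0.0495 TPM. Npr3 lay lowest of the 3 in both libraries. Npr1 exceeded Npr3 by a mean log2 ratio of 2.85 ± 0.08 and Npr2 exceeded Npr3 by 3.41 ± 0.29.

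Npr2 exceeded Npr1 at the gene level in both libraries, by a log2 ratio of 0.71 in replicate 2 and 0.41 in replicate 1, but that order depended on which transcripts were counted. For the full-length coding transcripts alone, a comparison added after the values were seen, that of Npr2 had 10.3 TPM in replicate 2 and 4.42 TPM in replicate 1, against 11.1 and 7.67 TPM for that of Npr1. The log2 ratio of the full-length Npr2 message over that of Npr1 was -0.11 in replicate 2 and -0.80 in replicate 1, a mean of -0.45 ± 0.49, so this difference was smaller than its spread.

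Ordered by mean TPM, the genes ran Nppa, Nppb, Furin, Corin, Npr2, Npr1, Npr3 and Nppc. The ranges of the 2 libraries overlapped between Furin and Corin and between Corin and Npr2, and not between the other neighbours. By estimated counts summed over both libraries, which are not divided by length, Corin took place 2 and Nppb place 5. In replicate 2 alone Furin, with 9072 counts, stood above Corin, with 6683. The protein-coding genes closest in level over the 2 libraries, by distance in log2(TPM + 1) among 11160 genes with a mean of at least 1 TPM, were Ckm and Cox4i1 for Nppa, Cisd1 and Tmem143 for Nppb, Clta and Mettl22 for Furin, and Cd59a and Schip1 for Corin. They included Slc26a6 for Npr1, and were Rnaset2a and Plpp7 for Npr2, and Snapc1 and Enox2 for Npr3. Ckm, for example, measured 2525 TPM in replicate 2, against 1595 TPM in replicate 1. With only 2 libraries this likeness is one of level.

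Between the libraries, none of the 8 genes was called different. A gene was called when a two-sided exact binomial test of its counts, given TMM-scaled library sizes, had a Benjamini-Hochberg adjusted p under 0.05 over 16145 tested genes and a fold of at least 2. By that rule 11.8% of all tested genes were called, 8.21% with more in replicate 2 and 3.57% with less. Of the 8 genes 7 were tested, and Nppc, with fewer than 20 counts, was not. The test compares these libraries, has no replicate check, and at such depth passes most genes once the fold limit is dropped. Without it all 7 passed, 5 higher in replicate 2 (Nppa, Nppb, Furin, Npr1 and Npr2) and 2 lower (Corin and Npr3), where GC correction turned the signs of Furin and Npr3 and deposited TPM that of Npr3. TPM over nuclear genes alone, a scale added after the data were seen, set all tested genes at a median log2 ratio of -0.33 and turned Nppb, Furin, Npr1 and Npr2 to values below 0. Relative to that median Npr1 alone stayed turned, at -0.08. Of all tested genes 67.8% passed without the fold limit.

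The 2 heart-secreted peptides were both higher in replicate 2 on TMM-scaled counts, while TPM over nuclear genes put Nppb at 199.8 in replicate 2 and 203.1 in replicate 1. Nppa had 1611 TMM-scaled CPM (counts as parts of a fixed library size) in replicate 2 and 1088 CPM in replicate 1, so that the fold was 1.48 with an exact 95% counting interval of 1.466 to 1.496. Nppb had 64.2 and 49.2 CPM, 1.30-fold (1.24 to 1.37). Their log2 ratios of 0.57 and 0.38 lay above the third quartile of all tested genes (0.32) and below the 95th percentile (0.89). Beside them, the 8 atrial marker genes, led by Sln, summed to 2624 TPM in replicate 2 and 1742 TPM in replicate 1, with 1 of 8 called, the atrial light chain Myl7 (878 and 393 TPM), and a median log2 ratio of 0.29 (0.23 after the GC correction described below, when Myl7 was not called). The list did not move as one. Bmp10, a peptide growth factor of the atria named after its values were seen, ran the other way, with 23.9 TPM in replicate 2 and 37.1 TPM in replicate 1, a log2 ratio of -0.79. Sbk2 lay at -0.02. The 8 ventricular markers, led by Actc1, summed to 34857 and 29215 TPM, with none called and a median log2 ratio of -0.01. They did not move as one either, with 4 of the 8 above 0. Tnni3 lay at 0.93 and Irx4 at 0.76 (0.30 after GC correction), while Actc1 lay at -0.33 and Mpped2 at -0.27. Actc1, Myh6 and Tnni3 of that list are also made in the atria, so it is not a purely ventricular measure. Without these 3 the sums were 9093 TPM in replicate 2 and 8283 TPM in replicate 1, and without Tnni3 alone they were 23827 and 24584 TPM. The median log2 ratios of these 2 sets on TMM-scaled counts were 0.02 and -0.04 (-0.02 and -0.12 after GC correction). All these TPM sums share the unequal scale described above. In bulk tissue, a larger share of atrial cells and more RNA per atrial cell cannot be told apart, and the part of atrial content in the Nppa difference was not tested.

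Corin went the other way and had the largest difference of the 7. It had 103 CPM in replicate 2 and 174 CPM in replicate 1, a ratio of 0.593 (exact 95% interval 0.575 to 0.612), or 1.69-fold lower in replicate 2. Its log2 ratio of -0.75 lay below the 5th percentile of all tested genes (-0.71). With a fold limit of 1.5, Corin was the 1 gene of the 7 called, against 27.3% of all tested genes. Furin had 140 CPM in replicate 2 and 110 CPM in replicate 1, 1.27-fold (1.23 to 1.32).

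On uncorrected TMM-scaled counts the receptors differed least. Npr1 had 48.3 CPM in replicate 2 and 39.9 CPM in replicate 1, 1.21-fold (1.15 to 1.28). Npr2 had 67.6 and 56.3 CPM, 1.20-fold (1.15 to 1.26). Npr3 had 16.8 and 18.5 CPM, a ratio of 0.908 (0.833 to 0.991). The log2 ratios of all 3 lay between the quartiles of all tested genes (-0.32 and 0.32). Of the cell markers beside them, 6 endothelial genes, led by Fabp4, had a median log2 ratio of -0.11 and 6 endocardial genes, led by Vwf, of 0.40. Neither list moved as one. The endothelial values ran from -0.53 to 0.23, with 3 of 6 above 0 and Fabp4 at 0.07. The endocardial values ran from -0.52 to 0.65, with 4 of 6 above 0 and Vwf at -0.19. After GC correction the endothelial and endocardial medians were -0.25 and 0.25. None of either list was called before that correction, and Hapln1 of the endocardial list was called higher after it. Their part in the receptor values was not tested.

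Genes rich in G and C tended to read higher in replicate 2, and this trend moved several of these values. After correction for a smooth trend with GC content, Nppb had a log2 ratio of 0.55, Nppa of 0.34, and Corin of -0.69. Furin (57.7% GC) moved to -0.012, Npr1 (55.7%) to 0.02 and Npr3 (46.5%) to 0.10, so the signs of Furin and Npr3 turned. No member was called after the correction, against 9.13% of all tested genes.

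**Figure D2:**
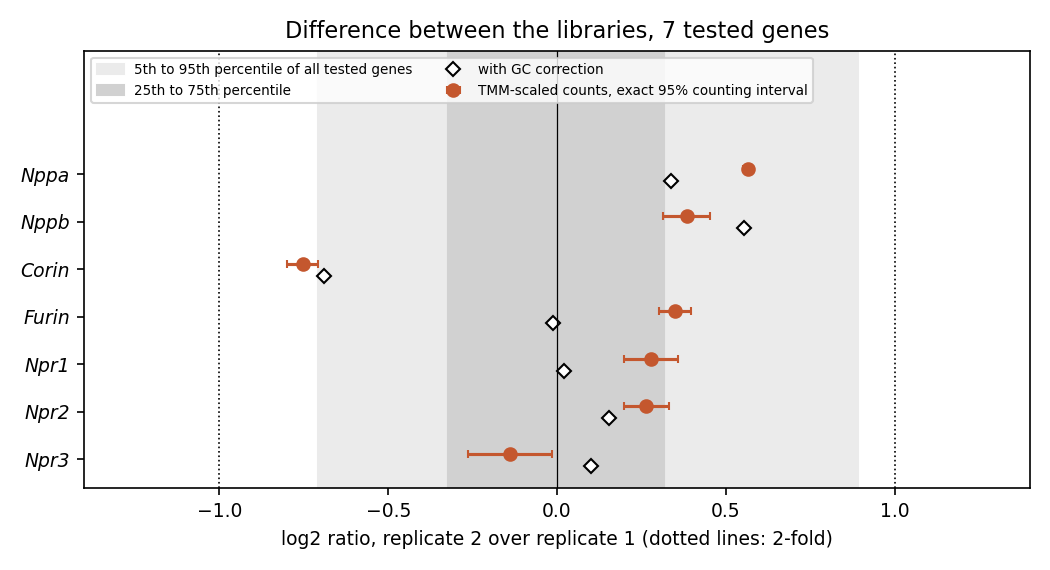
Log2 ratio of replicate 2 over replicate 1 for the 7 tested genes: filled circles with exact 95% counting intervals show TMM-scaled counts, open diamonds the value after GC correction, and grey bands the spread of all 16145 tested genes. Corin lies at -0.75, outside the 5th to 95th percentile band, Nppa and Nppb lie on the positive side with and without the correction (Nppb not in TPM over nuclear genes, which is not drawn), and no gene reaches the dotted 2-fold lines.

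The transcript tables assigned most of the Corin difference to the transcript with 1 of its alternative first exons. Corin had 7 annotated transcripts, and Corin-201 and Corin-202 held nearly all of its TPM. They have 22 exons each and share 20 exactly. They differ in the first exon and by 1 base at the 3′ end. Corin-201 starts with an exon of 327 bases (chromosome 5, positions 72503882 to 72504208), and Corin-202 with one of 103 bases (positions 72504371 to 72504473). The first exons encode different beginnings of the protein, so their coding bases are printed with the start codon in capitals (GENCODE M21, GRCm38, minus strand).
Corin-201 (chr5:72503882-72504148, 89 codons): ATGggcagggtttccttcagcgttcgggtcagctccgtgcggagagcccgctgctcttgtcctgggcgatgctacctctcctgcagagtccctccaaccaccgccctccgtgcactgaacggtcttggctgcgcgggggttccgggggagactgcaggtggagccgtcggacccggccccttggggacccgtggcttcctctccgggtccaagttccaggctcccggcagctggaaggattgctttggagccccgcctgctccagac
Corin-202 (chr5:72504371-72504439, 23 codons): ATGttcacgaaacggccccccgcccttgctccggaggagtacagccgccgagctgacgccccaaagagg

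Corin-201 differed little between the libraries, with 5201 estimated counts in replicate 2 (posterior SD 223) and 4949 in replicate 1 (posterior SD 250). Corin-202 had 1454 counts in replicate 2 (posterior SD 223) and 4461 in replicate 1 (posterior SD 250). Scaled with TMM, Corin-202 was 3.66-fold lower in replicate 2 and Corin-201 was 1.14-fold lower. Corin-202 held 84.6% of the difference in the gene's CPM. In shares of TPM, Corin-201 held 75.7% in replicate 2 and 50.6% in replicate 1, and Corin-202 held 22.2% and 47.9%. The posterior SD covers only the division of fragments between transcripts within a library, so it is no measure of the spread between libraries.

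Shifts of at least 20 points were uncommon but not rare. Over the 3528 genes that averaged 10 TPM or more and had 2 or more transcripts expressed, the share of the leading transcript differed between the libraries by at least 20 points, a limit set after the values were seen, in 7.99%. Of the 4 genes of the natriuretic list among them, Corin passed that limit, at 25.2 points. Npr1 differed by 14.2 points, Npr2 by 13.5 and Furin by 3.52, and the median over all these genes was 4.61 points. The first exon of Corin-201 has 67.3% GC and that of Corin-202 has 61.2%, and the part of GC content in the shift was not tested.

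**Figure D3:**
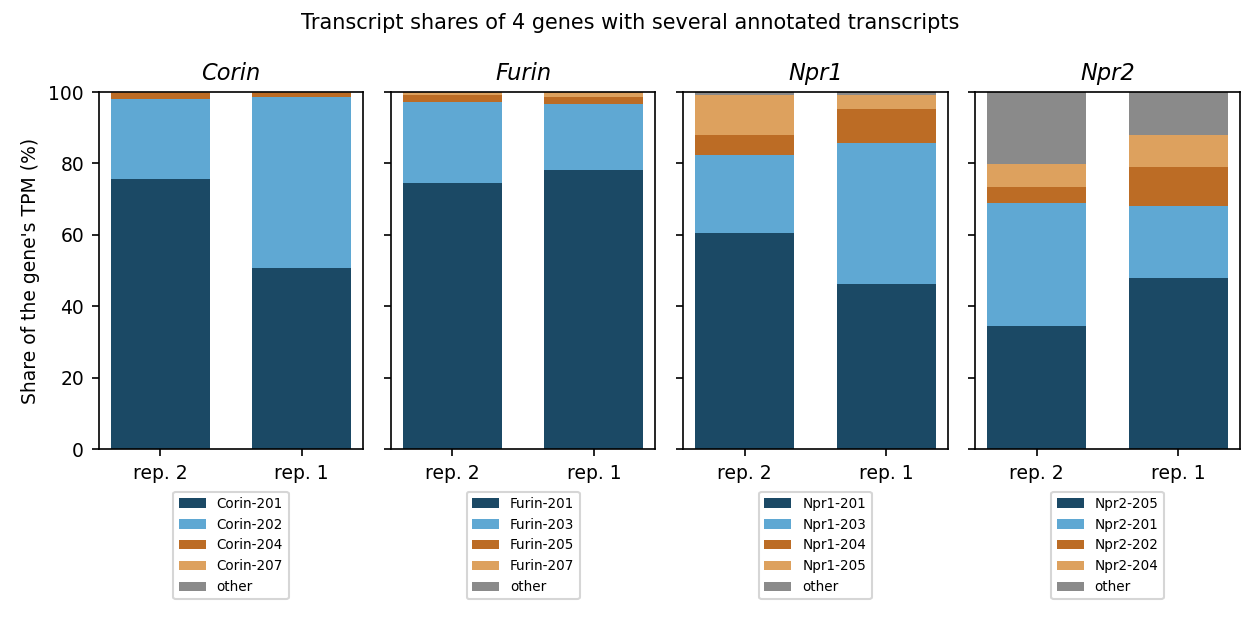
Share of each gene's TPM held by its 4 leading transcripts and by all others, as stacked bars per library (replicate 2 left, replicate 1 right). Corin-202 covers 22.2% of Corin in replicate 2 and 47.9% in replicate 1, while the division of Furin is close to the same in both.

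Furin also had a pair of first exons, and here the division was stable. Furin-201 (first exon at chromosome 7, positions 80405319 to 80405431) took 74.6% of the gene's TPM in replicate 2, against 78.2% in replicate 1. Furin-203 (first exon at positions 80402530 to 80402762) held 22.6% and 18.4%. Both first exons hold no coding bases, the other 15 exons are shared, and both transcripts have a coding length of 2379 bases. The start used therefore leaves the annotated Furin protein the same, unlike that of Corin.

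For Npr1 the share of the receptor message depended on the unit. Its full-length coding transcript, of 4066 nucleotides, held 90.7% of the gene's counts in replicate 2 and 85.7% in replicate 1, but 60.4% and 46.2% of its TPM. A processed transcript of 767 nucleotides, annotated as non-coding, held 152 and 230 counts yet 22.1% and 39.5% of TPM. By counts the full-length receptor message led in both libraries by a wide margin. The gene-level TPM of Npr1 includes these non-coding models.

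Npr2 was the most divided gene, with 10 annotated transcripts. A coding model of 17 exons whose 5′ end is annotated as incomplete had 34.4% of TPM in replicate 2, against 47.9% in replicate 1. The full-length coding transcript held 34.4% and 20.1%, from 2355 counts (posterior SD 86.0) and 953 counts (posterior SD 91.0). On TMM-scaled estimated counts the full-length transcript was 2.07-fold higher in replicate 2, whereas the incomplete model was 1.15-fold lower. The 2 models share 16 exons exactly, so fragments of those exons can be assigned to either. These transcript folds thus depend on that division, and the whole gene differed 1.20-fold. A further coding model keeps the intron of 70 bases between exons 19 and 20 (chromosome 4, positions 43650324 to 43650393) and has a coding length of 3099 bases, against 3141 bases for the full-length one. Its share of TPM was 4.65% in replicate 2, against 10.9% in replicate 1. Nppa, Nppb, Nppc and Npr3 had 1 annotated transcript each in the tables.

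**Figure D4:**
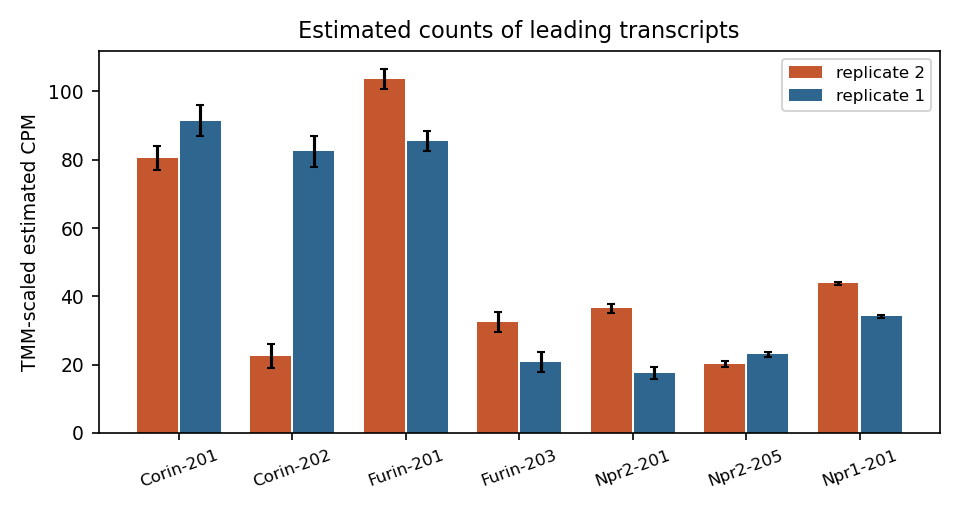
TMM-scaled estimated CPM of 7 leading transcripts, with bars from 0, replicate 2 left of replicate 1 in each pair and error bars of 1 posterior SD, which cover the division of fragments between transcripts only. Corin-202 stands at 22.5 CPM in replicate 2 and 82.5 CPM in replicate 1, next to 80.5 and 91.5 CPM for Corin-201.

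Some other genes of the convertase family were present, all below Furin in TPM in both libraries. Of 8 genes of this list, 5 were tested and none was called, with a median log2 ratio of -0.07, or -0.08 after GC correction (all tested genes, -0.01). Mbtps1, the site 1 protease, had 17.5 TPM in replicate 2 and 16.2 TPM in replicate 1. Pcsk6, which is known to activate Corin by cleavage, had 14.9 and 14.5 TPM, and Pcsk7 had 5.73 and 6.05 TPM. Pcsk1 and Pcsk2 had between 1 and 6 counts in each library, too few to test.

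Peptidases that degrade natriuretic peptides were also measured, and of 6 genes 4 were tested and none was called. The median log2 ratio was -0.23, and GC correction turned it to 0.15. Mme, neprilysin, the main degrading enzyme, was low, with 1.05 TPM in replicate 2 against 1.34 TPM in replicate 1. Ide, the insulin-degrading enzyme, had 12.7 and 17.7 TPM, and Ece1, an endothelin-converting enzyme, had 14.4 and 8.11 TPM. Dpp4 had 1.28 and 1.58 TPM. Mep1a had 0 counts in both libraries, and Mep1b had 1 count in replicate 2 and 0 in replicate 1.

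Among the other guanylyl cyclases, the soluble enzyme that answers nitric oxide was present and the other membrane forms were nearly absent. Of 8 genes 5 were tested and none was called. The median log2 ratio was -0.46, and -0.15 after GC correction. The soluble subunits Gucy1a1 and Gucy1b1 had 6.36 and 4.93 TPM in replicate 2, and 7.94 and 6.46 TPM in replicate 1. Gucy1a2 had 0.32 and 0.43 TPM. The membrane cyclases Gucy2c, Gucy2d, Gucy2e, Gucy2f and Gucy2g had at most 16 counts in a library, far below the counts of Npr1 and Npr2.

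Downstream of cGMP, 7 of 8 effector genes and 9 of 10 phosphodiesterase genes were tested and none was called, with median log2 ratios of -0.36 and -0.35. After GC correction these were -0.10 and -0.13. Among the effectors Pln, phospholamban, a target of cyclic nucleotide kinases, led with 1428 TPM in replicate 2, against 1988 TPM in replicate 1. Vasp, an actin regulator used as a readout of cGMP kinase, had 24.2 and 14.5 TPM, and Mrvi1, a partner of that kinase, had 7.82 and 6.29 TPM. Of the enzymes that break down cyclic nucleotides, Pde1c had 4.37 TPM in replicate 2 and 6.56 TPM in replicate 1, Pde3a 4.77 and 5.94 TPM, and Pde9a, which is specific for cGMP, 4.98 and 4.01 TPM. Pde5a, the target of sildenafil, stood at 0.78 TPM in both. No identifier matched the symbol Pde2a, so that gene has no value here.

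**Figure D5:**
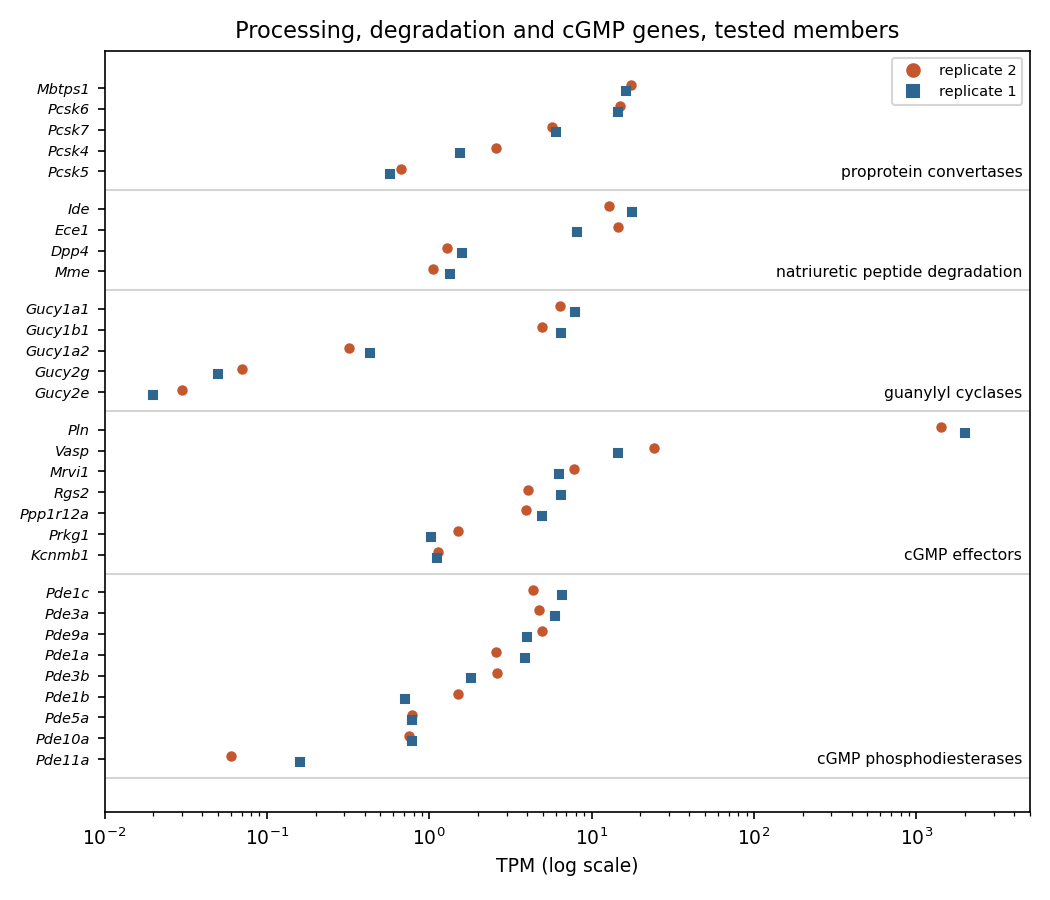
Levels in TPM on a log axis of the tested genes of 5 pathway lists, with circles for replicate 2 and squares for replicate 1. Pln stands far to the right of all others (1428 TPM in replicate 2, 1988 TPM in replicate 1), and the membrane cyclases Gucy2e and Gucy2g lie at the low end.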

How the data were processed

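For 2 heart libraries of 1 group, the authors deposited gene and transcript tables on mm10 and GENCODE M4, per the notes deposited beside them. Aligner and quantification program: not given in the sources used here. In these deposited tables the expected count is an estimated number of fragments, per the file headers. Deposited TPM was scaled by effective length to a fixed sum, and deposited FPKM by length and depth, per the file headers. The authors' percent of a gene per transcript was deposited too. Shares were computed again from TPM. Other deposited columns (lengths, posterior SD of the count) were used as given, per the file headers.

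Symbols and coordinates came from GENCODE M21 on the same assembly (42462 of 43346 identifiers matched). Counts were rounded. TMM factors (1.04 in replicate 2, 0.957 in replicate 1) came from edgeR 4.0.16 and alternative size factors from DESeq2 1.42.0. Genes with at least 20 counts were tested with the binomial rule. It was checked on simulated data with counting noise alone, so that check does not cover other differences between these libraries. Log2 ratios add 0.5 CPM. The GC trend was a lowess curve (statsmodels 0.14.6). Overlapping genes held at most 10 counts, whether or not strand was used in counting. The genes, lists and tests were chosen with earlier results of these data known. All 8 genes were named, with the 3 highest members of each pathway list and every called one, the highest and every called member of each marker list, and the 2 nearest genes, except for items not reported here. Some names (Bmp10, Sbk2, Irx4, Tnni3, Mpped2, Hapln1, Mme, Pde5a and genes near 0) and the GATAA motif were chosen after values or sequences were seen. The smooth muscle list had Cnn1 called higher (12.2 TPM in replicate 2, 3.44 TPM in replicate 1) and is led by Acta2. The fibroblast list had Lum called lower (25.1 TPM in replicate 2, 56.7 TPM in replicate 1; not called after GC correction) and is led by Dcn. Contig and junction lists on mm9 were not used.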

Additional observations from a re-analysis of the deposited data

How the results depend on the processing

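Over all genes 1901 were called. Without the fold limit the count was 10941 and with a limit of 1.5 it was 4413. With the same settings, 7 and 1 of the 7 tested members were called, against 0. DESeq2 size factors, scaling by total counts, no count minimum and GC correction left the count of members at 0 and that of all genes between 1474 and 2331. Scaling by total counts gave 1602 higher and 415 lower in replicate 2, against 1325 and 576 with TMM. Deposited TPM, whose median log2 ratio over all tested genes was 0.12, turned the log2 ratio of Npr3 to 0.035, and GC correction turned it to 0.10 and that of Furin to -0.012. Relative to the median in deposited TPM, an alternative chosen after seeing the data, no member changed sign. TPM over nuclear genes moved the median to -0.33 and raised the levels (Nppa to a mean of 4149 TPM). The ratio on that scale, added after seeing the data, was -0.024 for Nppb, -0.41 for Npr1, -0.12 for Npr2 and -0.046 for Furin, and relative to its median -0.082 for Npr1. The log2 ratio of Furin over Corin ran from -0.49 without replicate 2 to 0.62 without replicate 1, and that of Npr2 over Npr1 was -0.45 for full-length transcripts, also chosen after seeing the data. The cause was not tested, except that the fold limits admit more genes by construction. By counts, the full-length transcript held a mean of 88.2% of Npr1, against 53.3% by TPM. Without a replicate no test between libraries remains, and levels are then those of the other library. No paired analysis was possible because there is 1 group. Depth limits Nppc alone among the 8.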
